A study of Mus musculus with 8 samples.

Results

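The 10 genes described here are the broadly expressed forkhead transcription factors of the FoxO, FoxP, FoxN, FoxJ and FoxK subfamilies: Foxo1, Foxo3, Foxp1, Foxp4, Foxn2, Foxn3, Foxj2, Foxj3, Foxk1 and Foxk2. They were taken by symbol from a table of 24539 mouse genes, and each subfamily is represented by 2 of them. All 10 passed the filter on low counts, which kept 13459 genes. RNA was sequenced from nephron progenitors of the embryonic mouse kidney at E18.5, sorted for the GFP of the Six2GFPcre transgene, which all groups carry and which drives Cre from Six2 regulatory sequence in these cells. There were 2 libraries in each of 4 groups. The KO-labelled libraries carry 2 conditional alleles of Smo (Smo c/c ; Six2GFPcre). The Het-labelled libraries carry 1 conditional and 1 normal allele (Smo c/+ ; Six2GFPcre). The WT-labelled libraries have both normal alleles (Smo +/+ ; Six2GFPcre). The SmoM2-labelled libraries add a Rosa26 SmoM2/+ allele, an activated form of Smo that Cre turns on, to Smo +/+ ; Six2GFPcre. Smo is the membrane protein that passes the Hedgehog signal to the Gli transcription factors, and the series varied it to ask what these progenitors need it for. The labels do not say that replicates came from separate embryos, so p-values measure only the spread between these libraries.

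Forkhead proteins bind DNA through a shared winged helix domain. FoxO factors are held in the cytoplasm when insulin or growth factor signalling activates AKT, which phosphorylates them, and they enter the nucleus and switch on genes of cell cycle arrest, stress resistance and fasting metabolism when that signal is low. FoxP factors pair with each other through a leucine zipper and are mostly known as repressors that recruit chromatin complexes. FoxN2 and FoxN3 form a branch of which FoxN3 is known as a checkpoint protein and repressor, FoxJ2 and FoxJ3 are widely expressed activators, and FoxK1 and FoxK2 occupy related sites, repress autophagy genes and bind BAP1 and SIN3 complexes.

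Listed counts were 4422305 and 4442697 in the KO-labelled libraries and between 5929770 and 10305398 in the other 6, so low genes are measured least well in the KO-labelled group. Smo was at 13.1 and 11.1 CPM (counts scaled to a common library size) with the KO label, 14.4 and 23.9 with Het, 363 and 375 with WT and 605 and 629 with SmoM2. The Het-labelled libraries thus had a Smo level near that of the KO-labelled ones, which goes against a label with 1 normal allele, so groups are named by their labels throughout. All 10 nephron progenitor markers were detected in every group. Their summed level differed by group, at 4936 to 5241 CPM with the KO label, 5995 to 6329 with Het, 4074 to 4351 with WT and 4179 to 4196 with SmoM2. Markers of other states also moved with the groups: 8 differentiating nephron markers summed to between 1374 and 1695 CPM in the KO-labelled libraries and between 481 and 786 in the rest. The 10 genes of the dissociation stress list summed to between 7967 and 7998 CPM in both Het-labelled libraries, against 4043 to 5938 with the KO label, 2870 to 3040 with WT and 3290 to 4775 with SmoM2. Stromal markers were at 607 CPM in the first and 77.9 in the second KO-labelled library, and at 149 to 674 in the others. Within that list Foxd1, itself a forkhead gene that defines renal stroma, followed the groups. It was at 12.8 and 3.70 CPM with the KO label and 22.5 and 14.6 with Het. With WT it was at 197 and 171 CPM and with SmoM2 at 385 and 301, which the stromal sums include. Col1a1 and Col3a1 of the same list did not follow it. They were highest in KO replicate 1 (380 and 158 CPM) and lowest in KO replicate 2 (32.9 and 17.6). The part of Foxd1 in the changes of the members was not tested. Both KO-labelled libraries were male and both Het-labelled ones female by Xist and Y-linked counts, while the WT- and SmoM2-labelled groups held 1 of each, so sex cannot be told apart from genotype between the KO- and Het-labelled groups.

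The members lie on 8 chromosomes of the RefSeq annotation of GRCm38.p6. Foxo1 is at chr3:52268337-52350109 on the plus strand and Foxo3 at chr10:42181845-42276695 on the minus strand. Foxp1 spans chr6:98925342-99522746 and Foxp4 chr17:47867133-47924632, both on the minus strand. Foxn2 is at chr17:88440704-88490533 on the plus strand and Foxn3 at chr12:99190081-99563667 on the minus strand. Foxj2 lies at chr6:122820184-122845366, Foxj3 at chr4:119539661-119629119, Foxk1 at chr5:142401497-142462015 and Foxk2 at chr11:121259987-121309900, all on the plus strand. In the GENCODE vM21 annotation 7.78% of Foxo1's exon bases and 2.96% of Foxj2's lie over an antisense gene, and no strand setting is given for the counts, so reads of those stretches cannot be assigned to a strand.

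RefSeq promoter windows, 250 bases before to 50 after a start, were at hand for 8 members with 10 starts between them. The 100 bases before the start are printed for 3 members whose levels moved in opposite directions: Foxo1 and Foxp4, which fell in the KO-labelled libraries, and Foxk2, which was higher there than in the SmoM2-labelled ones. Capitals mark ATTGG, the CCAAT box read on the other strand, a motif chosen after the windows had been seen.
Foxo1, chr3:52268237-52268336, plus strand: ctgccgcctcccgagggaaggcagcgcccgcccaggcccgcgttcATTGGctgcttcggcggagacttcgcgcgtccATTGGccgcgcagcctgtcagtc
Foxp4, chr17:47924633-47924732, minus strand: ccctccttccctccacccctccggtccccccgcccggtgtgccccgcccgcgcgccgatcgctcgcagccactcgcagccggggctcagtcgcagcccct
Foxk2, chr11:121259887-121259986, plus strand: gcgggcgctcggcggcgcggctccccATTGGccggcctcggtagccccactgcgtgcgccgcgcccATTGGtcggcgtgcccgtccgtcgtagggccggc
Foxo1 and Foxk2 each hold ATTGG at 2 places in this stretch and Foxp4 at none. This motif occurred on either strand in 3 of the 10 windows, those of Foxo1, Foxk2 and 1 of the 3 Foxp1 starts, and in 37.4% of all 32851 windows. The forkhead motif TGTTTAC, searched on both strands, was in 0 of the 10 windows and in 3.65% of all. The Gli motif GACCACCCA, also searched on both strands, was in 0 of the 10 and in 0.253% of all. Over their whole 300 bases, the windows of these 3 members were at 61.3% GC for Foxo1, 70.3% for Foxp4 and 79.3% for Foxk2. The median over all windows was 52.7%. The other member windows ran from 48.7% (1 of Foxp1) to 78.3% (Foxj2), with Foxn3 at 52.7%.

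Levels between genes were compared per length, as CPM per kilobase of the gene length in the authors' table, averaged over the 8 libraries. Foxp4 was highest at 83.9, above 93.9% of tested genes, and ranged from 43.3 to 116 over the libraries. Foxo3 followed at 55.1 (31.8 to 76.0), and these stand apart from the others, whose ranges do not reach 31.8. Foxk2 was at 19.8 (15.2 to 27.6), Foxj3 at 15.6 (12.0 to 20.5), Foxk1 at 15.1 (12.0 to 19.0) and Foxp1 at 13.2 (9.18 to 15.9), and the range of each overlaps that of the next. Foxo1 at 10.4 (5.54 to 22.2), Foxj2 at 10.2 (7.90 to 12.3) and Foxn3 at 8.94 (3.05 to 15.8) lay near the median tested gene, which was at 10.1. Foxn2 was lowest at 3.55 (2.70 to 4.58), and its range overlapped that of Foxn3. The order depends on the lengths used: the table gives Foxn3 a length of 2611 bases and Foxo3 2889, where the union of GENCODE exons has 11501 and 7571. Within a gene the length cancels, and there Foxn3 spanned 5.18-fold and Foxo1 4.01-fold between the lowest and highest library, against 1.55- to 2.67-fold for the other 8 members.

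**Figure D1:**
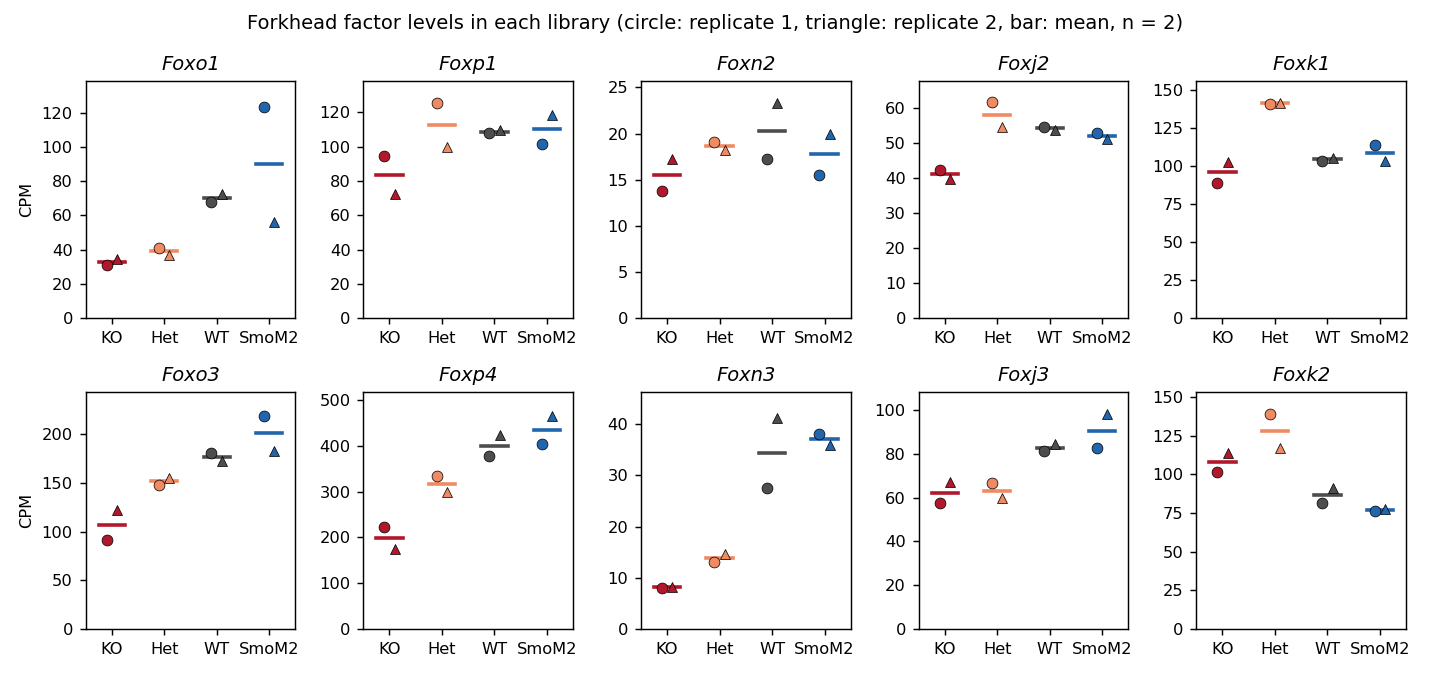
Level of each member in CPM (vertical axes, each from 0) in every library by group label, with a circle for replicate 1, a triangle for replicate 2 and a bar for the mean of 2. Foxn3 and Foxo1 are lowest in the KO-labelled and next in the Het-labelled libraries, Foxk1 is highest in the Het-labelled ones, and for Foxn2 the KO-labelled libraries lie under the Het- and WT-labelled ones by a narrow margin and overlap the SmoM2-labelled ones.

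Between KO- and WT-labelled libraries, 5 of the 10 members fell and none rose. The largest change was that of Foxn3, 4.22-fold lower in the KO-labelled libraries, followed by Foxo1 (2.13-fold), Foxp4 (2.02-fold), Foxo3 (1.65-fold) and Foxj2 (1.32-fold). Of all tested genes 23.0% were called in this comparison, 11.4% lower and 11.6% higher (edgeR, adjusted p under 0.05). The median log2 difference was -0.41 over the 10 members and 0.03 over all tested genes. For all 10 members both KO-labelled libraries lay on the same side of both WT-labelled ones, below for 9 and above for Foxk2, and 62.0% of tested genes were separated in this way. In bulk libraries fewer cells of a type and less RNA per cell cannot be told apart, and the differentiating nephron markers that were higher in the KO-labelled libraries moved with these changes, so their part in the result was not tested. When 1 library was left out, the KO- minus WT-labelled difference of Foxn3 ran from -2.35 to -1.79 on the log2 scale. It ran from -1.19 to -1.01 for Foxo1, -1.20 to -0.85 for Foxp4, -0.95 to -0.53 for Foxo3 and -0.45 to -0.36 for Foxj2. Fewer members were called when any one KO-, Het- or WT-labelled library was left out, and fewer of all tested genes were called there too. More members were called when either SmoM2-labelled library was left out.

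Het- against WT-labelled libraries gave 4 calls in both directions. Foxn3 (2.48-fold) and Foxo1 (1.79-fold) were lower in the Het-labelled libraries, and both FoxK genes were higher, Foxk2 by 1.48-fold and Foxk1 by 1.36-fold. In this comparison 25.3% of tested genes were called, 13.1% higher and 12.2% lower, and the member median was -0.17 against -0.02 for all tested genes. Groups did not overlap for 7 members and for 66.9% of tested genes. The stress list was highest as a sum and as a mean in the Het-labelled libraries, though Atf3 and Dusp1 were highest in SmoM2 replicate 2. With the mean of the list as a covariate 0 members were called, as were 1.29% of tested genes. That mean was 7.61 and 7.77 log2 CPM with Het and 6.49 and 6.69 with WT, so stress cannot be told apart from the label here. With this covariate the standard error of Foxn3 rose from 0.21 to 0.47 at a difference of -1.49, and Foxo1 turned to 0.60. The part of stress in these changes was not tested. When 1 library was left out, the Het- minus WT-labelled difference of Foxn3 ran from -1.58 to -1.02 on the log2 scale. It ran from -0.96 to -0.79 for Foxo1, 0.40 to 0.67 for Foxk2 and 0.41 to 0.44 for Foxk1. Fewer members were called when any one Het- or WT-labelled library was left out, and fewer of all tested genes were called there too.

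No member was called between SmoM2- and WT-labelled libraries. The differences ran from -0.19 for Foxn2 to 0.36 for Foxo1 on the log2 scale, and 0 members passed in edgeR, where 0.223% of tested genes did (0.156% higher and 0.0669% lower). At an unadjusted p under 0.05 there were 0 members among 1036 genes, and DESeq2 called 0 members and 0.609% of tested genes. For 3 members the libraries did not overlap, Foxo3 (higher) and Foxj2 and Foxk2 (lower), against 35.8% of tested genes. The standard errors, between 0.12 and 0.27 on the log2 scale, set what these libraries could show.

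KO- against SmoM2-labelled libraries, the widest contrast in Smo, gave 6 calls among the members. Foxn3 was 4.55-fold, Foxo1 2.74-fold, Foxp4 2.19-fold, Foxo3 1.88-fold and Foxj3 1.45-fold lower in the KO-labelled libraries, and Foxk2 was 1.40-fold higher. Here 32.5% of tested genes were called, 16.0% lower and 16.5% higher, and libraries did not overlap for 9 members and for 67.1% of tested genes. Between KO- and Het-labelled libraries, whose Smo levels were close, 3 members were lower in the KO-labelled ones: Foxp4 (1.60-fold), Foxk1 (1.48-fold) and Foxj2 (1.42-fold). That comparison called 9.43% of tested genes, 5.10% lower and 4.33% higher, and libraries did not overlap for 9 members and for 56.9% of tested genes. Without Het replicate 1 the KO- minus Het-labelled differences were -0.60 for Foxp4, -0.57 for Foxk1 and -0.41 for Foxj2 on the log2 scale. Without Het replicate 2 they were -0.77, -0.58 and -0.61 in the same order. None of these calls held without either library, and fewer of all tested genes were called there too. These comparisons share libraries and are not independent of each other.

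**Figure D2:**
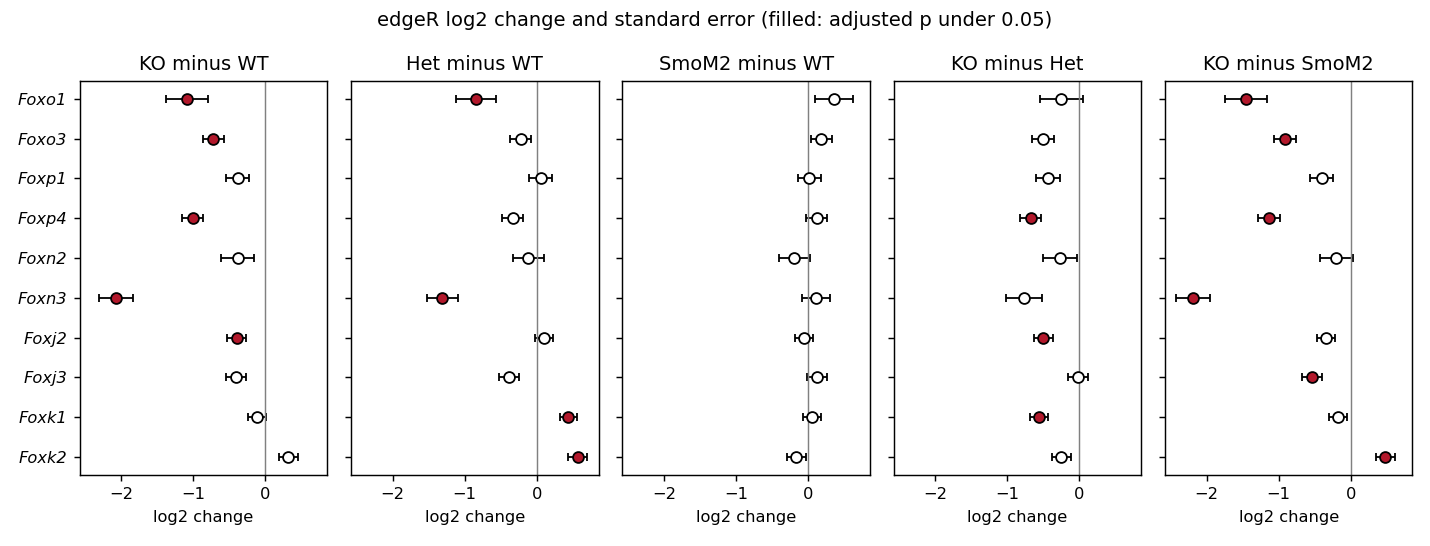
Difference of each member in edgeR's fit on the log2 scale (horizontal axis) for the 5 comparisons, with bars of 1 standard error and filled points where the adjusted p was under 0.05. Foxn3 lies farthest to the left in 4 of the 5 comparisons, Foxk2 is the only called point to the right in KO minus SmoM2, and no point is filled in SmoM2 minus WT.

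A test over all 4 groups called 8 of the 10 members and 41.0% of tested genes. Foxp1 (adjusted p = 0.129, edgeR) and Foxn2 (adjusted p = 0.513, edgeR) did not pass. The group means rose in the order KO, Het, WT, SmoM2 for 5 members, Foxo1, Foxo3, Foxp4, Foxn3 and Foxj3, an order that 10.8% of tested genes followed. It was read from the means alone and was not tested.

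Foxo1 encodes a FoxO factor best known for controlling insulin-responsive metabolism. It was at 30.8 and 34.8 CPM with the KO label, 41.0 and 36.9 with Het, 67.6 and 72.4 with WT and 124 and 55.9 with SmoM2. The KO- and Het-labelled libraries were all lower than every WT- and SmoM2-labelled library. Foxo1 fell by 1.09 on the log2 scale from WT- to KO-labelled libraries (SE 0.29, adjusted p = 0.0203, edgeR) and by 0.84 from WT- to Het-labelled ones (SE 0.28, adjusted p = 0.0449). The first call did not hold in 4 of 17 alternatives, and its adjusted p ran from 1.3e-09 to 0.227 over them. With the stress mean as a covariate the KO- minus WT-labelled difference shrank to -0.48 (adjusted p = 0.227, edgeR) and with GC and length trends removed to -0.85 (0.061), while without KO replicate 1 or 2 it was -1.01 and -1.19. The second was lost in 8 of 17, among them the removal of any one KO-, Het- or WT-labelled library, and turned direction in 1, with the stress mean as a covariate. The SmoM2-labelled libraries differed from each other by 2.21-fold, a fold that 3.14% of tested genes reached, and they also differ in sex and in the summed stress genes (3290 CPM in replicate 1, 4775 in replicate 2). Without SmoM2 replicate 1 the difference from the WT-labelled group was -0.31 in place of 0.36, neither of them called.

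Foxo3, the FoxO factor known for its part in stress resistance and in keeping stem cells quiescent, was at 91.9 and 123 CPM in the KO-labelled and at 148 and 155 in the Het-labelled libraries. It stood at 181 and 173 CPM in the WT-labelled and at 220 and 183 in the SmoM2-labelled ones. No 2 groups overlapped. Foxo3 fell by 0.72 from WT- to KO-labelled libraries on the log2 scale (SE 0.15, adjusted p = 0.00722, edgeR). The Het-labelled libraries lay 0.22 below the WT-labelled ones (SE 0.15, adjusted p = 0.292, edgeR), which did not pass. The KO- against WT-labelled call was lost without KO replicate 1 (adjusted p = 0.0582) and with the stress mean as a covariate (0.0602), with a range from 9.4e-06 to 0.0602 over the alternatives.

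Of 26 genes known as FoxO targets 22 were tested. Between KO- and WT-labelled libraries 9 of them fell and 1 rose, where 23.0% of all tested genes were called, with a median log2 difference of -0.50 against 0.03 over all tested genes. Txnip, which binds thioredoxin and limits glucose uptake, was at 67.8 and 43.5 CPM in the KO-labelled and 212 and 397 in the WT-labelled libraries and fell by 2.45 on the log2 scale (SE 0.30, adjusted p = 0.000418, edgeR). Fbxo32, a ubiquitin ligase subunit of muscle atrophy, was at 15.1 and 15.5 CPM against 44.8 and 42.0 and fell by 1.51. Pdk4, the kinase that shuts off pyruvate dehydrogenase in fasting, fell by 1.42, and Pik3ip1, an inhibitor of PI3K, by 1.35. Cited2, a coregulator that binds CBP and p300, was the gene that rose, from 201 and 136 CPM in the WT-labelled to 350 and 383 in the KO-labelled libraries. Sod2 (log2 difference 0.09) and Cat (-0.03), antioxidant enzymes often used as FoxO readouts, and the cell cycle inhibitor Cdkn1b (0.04) did not pass.

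The same list had 8 lower and 2 higher genes in Het- against WT-labelled libraries, where 25.3% of all tested genes were called. There Klf2, a transcription factor of quiescence that is also an early responder to stress, rose by 2.12 on the log2 scale. Txnip fell by 1.79, Cdkn1a by 1.71 and Pdk4 by 1.31. Klf2 was at 14.0 and 19.9 CPM in the Het-labelled libraries, 6.86 and 6.97 in the KO-labelled and 3.82 and 3.92 in the WT-labelled ones. With the stress mean as a covariate 0 of the list were called there, nor was any gene of the insulin, FoxO modifier, FoxP partner, FoxK partner and other forkhead lists in that comparison. KO- against SmoM2-labelled libraries gave 13 lower and 1 higher, with a median of -0.85 against 0.04 over all tested genes, and Fbxo32 fell by 2.06. In that comparison 32.5% of all tested genes were called. No target was called between SmoM2- and WT-labelled libraries, where the median was 0.23 against 0.00. KO- against Het-labelled libraries gave 3 lower (Klf2, Irs2 and Insr) and 1 higher (Sesn1), where 9.43% of all tested genes were called. Calls of this list were lost there when any one KO- or Het-labelled library was left out.

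**Figure D3:**
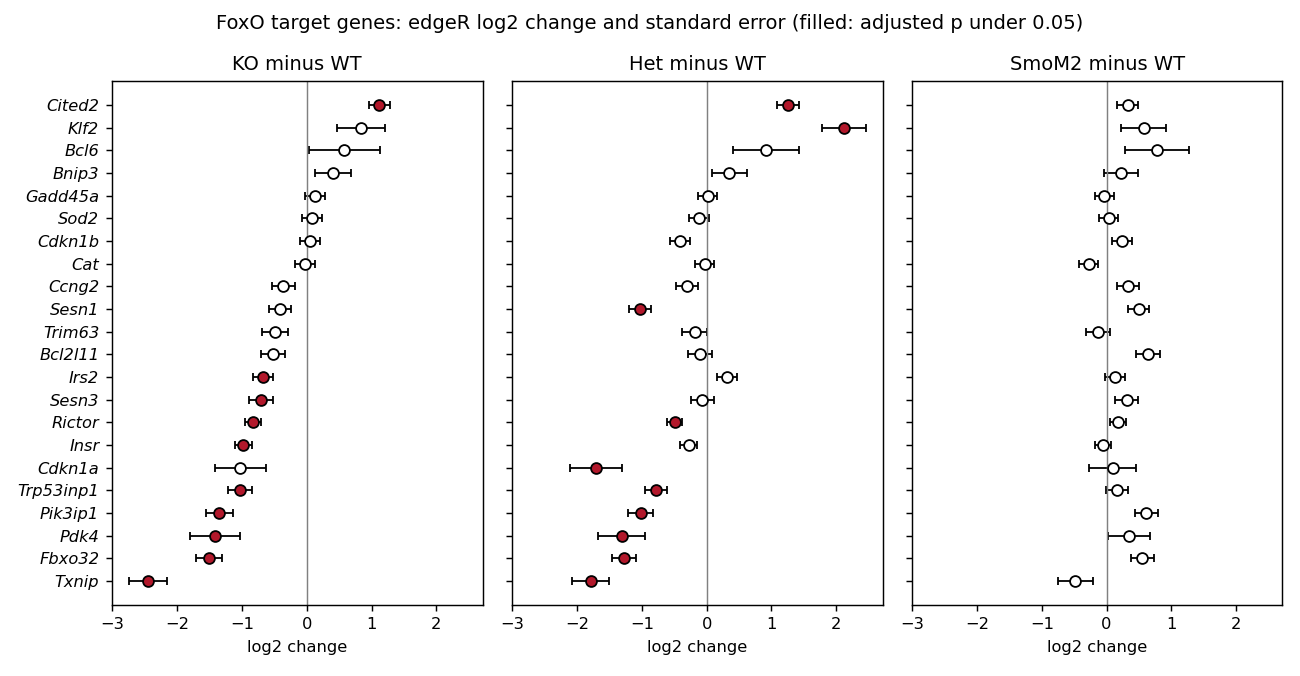
Difference of the 22 tested FoxO target genes in edgeR's fit on the log2 scale (horizontal axis), with bars of 1 standard error and filled points where the adjusted p was under 0.05, ordered by the KO minus WT difference. The 9 filled points at the lower left of the KO minus WT panel are the targets that fell, Cited2 at the top is the gene that rose, and the SmoM2 minus WT panel has no filled point.

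Upstream of FoxO, the insulin, PI3K and AKT list had 23 genes, all tested. Between KO- and WT-labelled libraries 4 fell, Igf1r, Insr, Rictor and Irs2, and Sgk1 rose, with a list median of -0.35. The 5 calls among 23 are a share near the 23.0% called over all tested genes, and with sex as a covariate 8 were called, beside 22.9% of all tested genes. Igf1r, the receptor for insulin-like growth factors, was at 182 and 175 CPM with the KO label, 323 and 339 with Het, 381 and 469 with WT and 494 and 414 with SmoM2. It fell by 1.25 on the log2 scale from WT- to KO-labelled libraries (SE 0.14, adjusted p = 0.000292, edgeR) and by 0.89 from Het- to KO-labelled ones (SE 0.14, adjusted p = 0.00714). Insr, the insulin receptor, was at 47.4 and 44.8 CPM in the KO-labelled and 91.1 and 90.8 in the WT-labelled libraries. Sgk1, a kinase that like AKT phosphorylates FoxO proteins, was at 17.7 and 22.6 CPM against 9.04 and 6.64 and rose by 1.36. Insr, Irs2 and Rictor stand in both this list and the target list. Of all tested genes 25.3% were called in Het against WT, 9.43% in KO against Het and 32.5% in KO against SmoM2. The list had 1 gene higher (Sgk1) and 1 lower (Rictor) in Het- against WT-labelled libraries, 0 and 3 in KO- against Het-labelled ones, 1 and 9 in KO- against SmoM2-labelled ones, and none called between SmoM2- and WT-labelled ones. Single libraries moved these counts. Fewer were called in KO against SmoM2 without KO replicate 1 and in Het against WT without Het replicate 1. The KO against Het calls were lost without Het replicate 1, and those of Het against WT without Het replicate 2 or WT replicate 2. Fewer of all tested genes were called in these cases too.

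Of 18 genes whose products modify or hold FoxO proteins, 3 fell and 4 rose between KO- and WT-labelled libraries, where 23.0% of all tested genes were called. The 3 that fell were Setd7, a lysine methyltransferase (by 1.17 on the log2 scale), and the acetyltransferases Crebbp (by 0.76) and Ep300 (by 0.57), and Skp2, a ubiquitin ligase subunit that directs FOXO1 to degradation, rose by 0.59. Between 1 and 9 genes of this list were called over the alternatives, against 7 here. With the stress mean as a covariate 1 was called, as were 11.2% of all tested genes. Fewer were also called when any one KO-, Het- or WT-labelled library was left out, and fewer of all tested genes were called there too. In Het against WT 25.3% of all tested genes were called, in KO against Het 9.43% and in KO against SmoM2 32.5%. From this list Het- against WT-labelled libraries gave 2 higher and 3 lower, KO- against Het-labelled ones 1 and 2, KO- against SmoM2-labelled ones 3 and 5, and SmoM2- against WT-labelled ones 0. The counts in Het against WT, KO against Het and KO against SmoM2 also fell when a library of the groups compared was left out. Fewer of all tested genes were called in these cases too.

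Foxp4, the most abundant member, is a FoxP factor with known roles in epithelial development. It was at 223 and 174 CPM with the KO label, 335 and 299 with Het, 378 and 423 with WT and 405 and 466 with SmoM2. The KO-labelled libraries were lowest and the Het-labelled ones next, with no overlap between them or with the rest, while the WT- and SmoM2-labelled libraries overlapped. Foxp4 fell by 1.01 on the log2 scale from WT- to KO-labelled libraries (SE 0.15, adjusted p = 0.00117, edgeR), a call that held in all 17 alternatives. It also fell by 0.68 from Het- to KO-labelled libraries (SE 0.15, adjusted p = 0.0203, edgeR), which was lost in 6 of 17 (adjusted p from 7.8e-05 to 0.161), among them without KO replicate 2 and without either Het-labelled library. Foxp1, its partner in dimers, was at 94.3 and 72.3 CPM with the KO label, 125 and 100 with Het, 108 and 110 with WT and 102 and 118 with SmoM2. It was lowest in the KO-labelled libraries, by 0.38 on the log2 scale against the WT-labelled ones (SE 0.16, adjusted p = 0.106, edgeR), and passed in none of the comparisons.

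Of 12 partners of FoxP proteins, mostly subunits of the NuRD and related repressor complexes, 2 fell and 1 rose between KO- and WT-labelled libraries, a share near the 23.0% called over all tested genes. Gatad2b fell by 1.01 and Chd4, the remodelling ATPase of NuRD, by 0.41 on the log2 scale, and Mbd3, its methyl-CpG-binding-domain subunit, rose by 0.81. Gatad2b was the only one called between Het- and WT-labelled libraries, lower by 0.70 (SE 0.20, adjusted p = 0.0275, edgeR). No partner was called between SmoM2- and WT-labelled libraries, 1 was called higher between KO- and Het-labelled ones, and 1 higher and 2 lower between KO- and SmoM2-labelled ones. Over all tested genes the called shares were 0.223%, 9.43% and 32.5% in the same order, and 25.3% in Het against WT. Without KO replicate 1 fewer partners were called in KO against WT. The single calls of the Het-labelled group were both lost without Het replicate 2. The Het against WT call was also lost without WT replicate 2. The KO against Het call was also lost without any one of KO replicate 1, Het replicate 1 and the SmoM2-labelled libraries. Fewer of all tested genes were called in these cases too.

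Foxn3, known as a repressor that acts in the DNA damage checkpoint and in liver metabolism, had the widest range of the members. It was at 7.97 and 8.27 CPM with the KO label, 13.1 and 14.6 with Het, 27.5 and 41.3 with WT and 38.0 and 36.1 with SmoM2. The KO-labelled values rest on as few as 36 counts in a library. All KO-labelled libraries lay below the Het-labelled ones, and those below the WT- and SmoM2-labelled ones, whose values overlapped. Foxn3 fell by 2.08 on the log2 scale from WT- to KO-labelled libraries (SE 0.24, adjusted p = 0.000301, edgeR) and by 1.31 from WT- to Het-labelled ones (SE 0.21, adjusted p = 0.0017). The first call held in all 17 alternatives and the second in 16, being lost with the stress mean as a covariate (adjusted p = 0.117, from 3.1e-08 to 0.117 over the alternatives). The KO-labelled libraries were 0.77 below the Het-labelled ones (SE 0.25, adjusted p = 0.0759, edgeR), which did not pass. Foxn2, the closest relative of Foxn3 in this set, was at 13.7 and 17.2 CPM with the KO label, 19.1 and 18.2 with Het, 17.2 and 23.3 with WT and 15.5 and 19.99 with SmoM2. Its groups lay close together and it passed in no comparison, its largest difference being -0.39 between KO- and WT-labelled libraries (SE 0.23, adjusted p = 0.243, edgeR).

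Foxj2 was at 42.3 and 39.6 CPM with the KO label, 61.5 and 54.4 with Het, 54.6 and 53.6 with WT and 52.8 and 51.1 with SmoM2. The KO-labelled libraries were lower than all others, which lay within a narrow band. Foxj2 fell by 0.40 on the log2 scale from WT- to KO-labelled libraries (SE 0.13, adjusted p = 0.045, edgeR), a call lost in 13 of 17 alternatives (adjusted p from 0.037 to 0.229), the removal of any one KO-, Het- or WT-labelled library among them. It fell by 0.50 from Het- to KO-labelled libraries (SE 0.13, adjusted p = 0.0365, edgeR), a call lost in 9 of 17 (adjusted p from 0.0217 to 0.25), the removal of any one KO- or Het-labelled library among them. Foxj3 followed another pattern, at 57.3 and 67.3 CPM with the KO label, 66.6 and 59.8 with Het, 81.2 and 84.6 with WT and 82.6 and 98.4 with SmoM2. The KO- and Het-labelled libraries overlapped and were all below the WT- and SmoM2-labelled ones. Foxj3 was 0.54 lower on the log2 scale in KO- than in SmoM2-labelled libraries (SE 0.14, adjusted p = 0.0142, edgeR), a call lost in 3 of 17 alternatives (adjusted p from 0.00214 to 0.129), 2 of them without KO replicate 1 and without SmoM2 replicate 2. Against the WT-labelled libraries the differences were -0.41 (KO-labelled, adjusted p = 0.0554, edgeR) and -0.39 (Het-labelled, adjusted p = 0.0587, edgeR), just outside the threshold.

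Foxk1 and Foxk2, which link mTOR signalling to metabolic and autophagy genes, were the only members called higher in any comparison. Foxk1 was at 89.0 and 103 CPM with the KO label, 141 and 142 with Het, 103 and 105 with WT and 114 and 103 with SmoM2. The Het-labelled libraries stood above all others, while the other groups lay between 89.0 and 114. Foxk1 was higher in Het- than in WT-labelled libraries by 0.44 on the log2 scale (SE 0.12, adjusted p = 0.0224, edgeR), a call lost in 6 of 17 alternatives (adjusted p from 0.0169 to 0.345), the removal of any one Het- or WT-labelled library among them. It fell by 0.56 from Het- to KO-labelled libraries (SE 0.12, adjusted p = 0.0211, edgeR), a call lost in 5 (adjusted p from 0.00273 to 0.584), among them without KO replicate 1 and without either Het-labelled library. Foxk2 was at 101 and 114 CPM with the KO label, 139 and 117 with Het, 81.4 and 91.5 with WT and 76.6 and 77.7 with SmoM2. All KO- and Het-labelled libraries were above all WT-labelled ones, and these above the SmoM2-labelled ones. Foxk2 was higher by 0.57 in Het- than in WT-labelled libraries (SE 0.13, adjusted p = 0.0106, edgeR) and by 0.48 in KO- than in SmoM2-labelled ones (SE 0.14, adjusted p = 0.0192). Each of these 2 calls was lost in 3 of 17 alternatives, the first without Het replicate 1, without WT replicate 1 or with the stress mean as a covariate, and the second without KO replicate 2 or either SmoM2-labelled library. KO- against WT-labelled libraries gave a Foxk2 difference of 0.32 (SE 0.13, adjusted p = 0.109, edgeR).

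Among 12 partners of FoxK proteins 4 fell and 1 rose between KO- and WT-labelled libraries, where 23.0% of all tested genes were called. Hcfc1, a scaffold of the BAP1 complex, fell by 0.78 on the log2 scale, Asxl2 by 0.75 and Asxl1 by 0.73, both activating subunits of the BAP1 deubiquitinase, while Suds3, a SIN3 complex subunit, rose by 0.73. Asxl1 also fell (by 0.67) and Suds3 rose (by 0.58) between Het- and WT-labelled libraries, with 2 Dishevelled genes, Dvl1 (0.57) and Dvl2 (0.51), whose products FoxK proteins carry into the nucleus. Dvl3 was the only partner called between KO- and Het-labelled libraries, lower by 0.51 (SE 0.14, adjusted p = 0.0457, edgeR), 1 higher and 3 lower were called between KO- and SmoM2-labelled ones, and none between SmoM2- and WT-labelled ones. Over all tested genes the called shares were 9.43%, 32.5% and 0.223% in the same order, and 25.3% in Het against WT. Of the 4 partners called in Het against WT, fewer were called without Het replicate 1 or 2, and fewer of all tested genes were called there too. The number of partners called in KO against Het could change when 1 library was left out. The number of all tested genes called there changed as well.

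Within each subfamily the ratio of the members per length is given as a description, with n = 2 libraries a group and no test. Foxn3 over Foxn2 was 1.03 ± 0.137 (SD) with the KO label, 1.45 ± 0.163 with Het, 3.28 ± 0.243 with WT and 4.14 ± 0.887 with SmoM2. Foxp4 over Foxp1 was 4.67 ± 0.0666, 5.54 ± 0.444, 7.20 ± 0.508 and 7.74 ± 0.0667 in the same order of groups. Foxk2 over Foxk1 ran the other way, from 1.67 ± 0.0280 in the KO-labelled through 1.34 ± 0.167 and 1.23 ± 0.0879 to 1.05 ± 0.0848 in the SmoM2-labelled libraries. Foxo3 over Foxo1 was 6.25 ± 0.724 with KO, 7.52 ± 0.830 with Het, 4.87 ± 0.389 with WT and 4.85 ± 2.02 with SmoM2, where the Foxo1 levels were unequal. Foxj3 over Foxj2 was lowest in the Het-labelled libraries, at 1.14 ± 0.0129, against 1.60 ± 0.253, 1.60 ± 0.0688 and 1.83 ± 0.266 in the KO-, WT- and SmoM2-labelled ones. The level of a ratio depends on the lengths in the authors' table, while its fold between groups does not. With GENCODE exon lengths, tried after the data had been seen, Foxn3 over Foxn2 was 3.04 times lower (0.340 ± 0.0451 with KO, 1.36 ± 0.291 with SmoM2), Foxj3 over Foxj2 2.15 times lower and Foxo3 over Foxo1 1.68 times lower, and Foxp4 over Foxp1 was higher (10.3 ± 0.725 with WT).

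**Figure D4:**
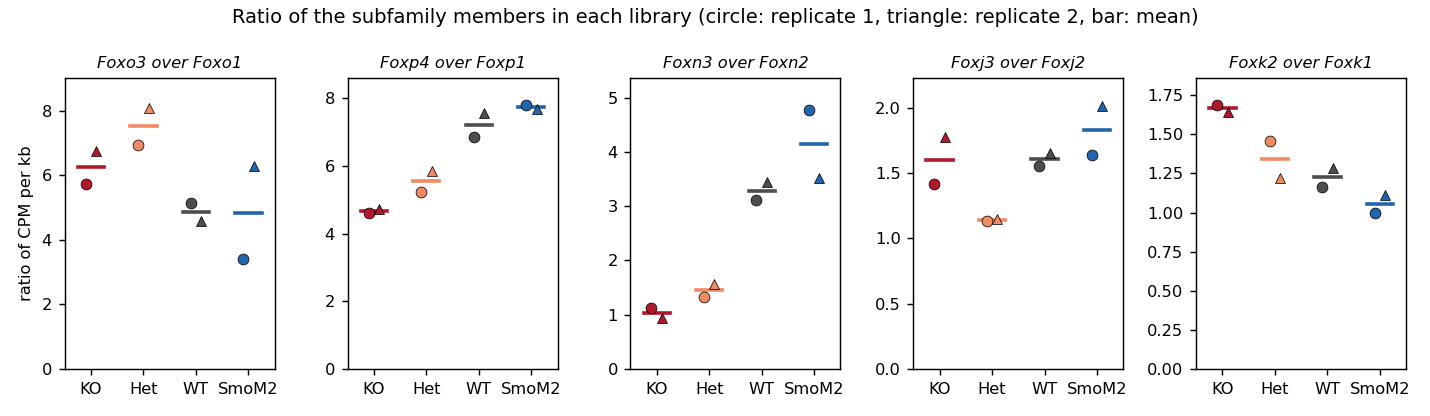
Ratio of the 2 members of each subfamily per length (vertical axes, each from 0) in every library, with a circle for replicate 1, a triangle for replicate 2 and a bar for the mean of 2. The Foxn3 over Foxn2 and Foxp4 over Foxp1 ratios are lowest in the KO-labelled libraries and the Foxk2 over Foxk1 ratio is highest there.

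Genes with the most similar pattern were sought for each member by Pearson's r of log2 CPM over the 8 libraries, among 10235 well expressed genes, as a description over libraries that share their groups and depths. Foxn3 was closest to Tead1 (r = 0.997) and Dbndd1 (0.995), Foxo3 to Prkacb (0.996) and Lrp6 (0.990), and Foxj3 to Hadhb (0.994) and Rnf11 (0.989). Foxp4 was closest to another forkhead gene, Foxd2 (0.990), and to Ncdn (0.987), Foxk2 to Pigq (0.989) and Daglb (0.987), and Foxo1 to Btbd3 (0.988) and Xrn1 (0.973). Lower values were found for Foxj2, with Abca3 (0.980) and Ulk1 (0.977), Foxk1, with Tmem184b (0.977) and Dctn1 (0.973), Foxp1, with Cux2 (0.951) and Lpcat3 (0.950), and Foxn2, with Klf11 (0.937) and Hic2 (0.936).

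The table holds 34 other forkhead genes, of which 12 were tested and 4 had no count in any library. Between KO- and WT-labelled libraries Foxd1, Foxo6, Foxc1 and Foxd2 fell and none rose, where 11.4% of all tested genes were called lower and 11.6% higher. Foxf1 was called lower too. It passed the count filter only through the SmoM2-labelled libraries and is not set against these shares. Foxd1 fell by 4.48 on the log2 scale (SE 0.36, adjusted p = 4.9e-05, edgeR), Foxo6, a FoxO gene of the nervous system, by 2.19 (SE 0.37, adjusted p = 0.00237), Foxc1 by 1.36 and Foxd2 by 1.25. Foxf1 had no count in either KO-labelled library and 0.746 and 0.871 CPM in the WT-labelled ones, and no fold is given for it. Foxo6 was at 2.66 and 1.96 CPM with the KO label, 3.74 and 2.04 with Het, 9.32 and 11.9 with WT and 12.1 and 10.2 with SmoM2. Foxo4, a further FoxO gene, passed in no comparison. It was at 121 and 113 CPM with the KO label, 122 and 118 with Het, 123 and 122 with WT and 125 and 122 with SmoM2. Its KO- minus WT-labelled difference was -0.06 on the log2 scale (SE 0.11, adjusted p = 0.713, edgeR). Per length Foxo4 averaged 38.2 over the libraries, above Foxo1 at 10.4. In Het- against WT-labelled libraries Foxd1 fell by 3.30, Foxo6 fell by 1.84 and Foxc1 fell by 0.51, and Foxc2 rose by 0.43. In KO- against Het-labelled ones Foxd2 (by 1.02) and Foxc1 (by 0.85) fell. In KO- against SmoM2-labelled ones Foxd1 (by 5.37), Foxo6 (by 2.26), Foxc1 (by 1.73) and Foxd2 (by 1.54) fell. Foxj1 (by 0.68) and Foxc2 (by 0.66) rose there, and Foxf1 and Foxf2 were also called lower. Of all tested genes 25.3% were called in Het against WT, 9.43% in KO against Het and 32.5% in KO against SmoM2. Foxf1, a known Hedgehog target in mesenchyme, was the gene called between SmoM2- and WT-labelled libraries, a call lost without WT replicate 1 or SmoM2 replicate 1. It was at 14.5 and 11.1 CPM with the SmoM2 label and at most 0.871 in every other library. Foxf2, called lower in KO against SmoM2, was at 1.94 and 1.39 CPM with the SmoM2 label and at most 0.109 elsewhere. Both passed the count filter only through the group where they are high, so their calls follow from that selection and are not set against the members. The KO against Het calls of these forkhead genes were lost without Het replicate 1, and fewer were called there without KO replicate 2. Without Het replicate 2 fewer were called in Het against WT. Fewer of all tested genes were called in these cases too. Per length 7 of the 34 exceeded Foxn2, the lowest member.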

How the data were processed

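The authors deposited 1 table for the series, which per the file headers holds unnormalized read counts for each gene and library, RPKM values and a gene length. The submitters' processing notes name STAR, featureCounts of Subread and mm10, and versions and strand setting are not given in the sources used here. The deposited RPKM values imply library totals of which the listed counts are 81.1% to 83.3%, and they entered 1 alternative scaling. Per the labels' protocols, polyadenylated RNA of sorted cells was made into cDNA libraries without mention of molecular identifiers.

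Counts were tested in R 4.3.3 with edgeR 4.0.16 (filterByExpr, TMM, quasi-likelihood F test, two-sided) in 1 model with a mean per group over all 8 libraries, with 4 residual degrees of freedom and a biological coefficient of variation of 13.5%. P-values were adjusted by Benjamini-Hochberg over 13459 genes, threshold 0.05. CPM use TMM-scaled library sizes, and log2 CPM a prior count of 2. Between 2 groups of 2 libraries no exact permutation test can pass 0.05. Replicates differed beyond sampling noise, with chi-square over degrees of freedom from 5.39 to 13.6. The GC and length alternative used GENCODE vM21 transcripts, with values for 97.9% of tested genes. Alternatives also used DESeq2 1.42.0. The procedure was tested on simulated data. The members, gene lists, tests and alternatives were chosen with earlier results of these data known. All members are named. Genes of the lists are named for the largest called changes, up to 4 a comparison, and a few others of the lists, with their values, after these had been seen. Genes with at most 3 counts in each library of a group get no fold. For likeness the 2 genes with the highest r were taken for each member. Protein sequences were not analysed here.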

Additional observations from a re-analysis of the deposited data

How the results depend on the processing

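Each of the 50 member differences was recomputed under 17 alternatives, which gave 850 values. Of these 734 kept direction and side of the threshold, 63 lost and 27 gained a call, and 26 turned direction. The values that turned were not called in any setting except Foxo1 in Het- against WT-labelled libraries. The cause was not tested for any of these changes.

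With the stress mean as a covariate the called members were 3 in KO- against WT-labelled libraries (5 as reported), 0 in Het- against WT-labelled (4) and 0 in KO- against Het-labelled ones (3). Of all tested genes 11.2%, 1.29% and 3.31% were called in the same order, against 23.0%, 25.3% and 9.43% as reported. The covariate turned Foxo1 in Het against WT to 0.60, Foxj2 and Foxj3 in SmoM2 against WT to 0.0096 and -0.049, and Foxn2 and Foxj3 in KO against Het to 0.16 and 0.21. With GC and length trends removed 3 were called in KO against WT, 0 in KO against Het and 5 over the 4 groups (8 as reported), beside 16.0%, 2.59% and 31.1% of tested genes. It turned Foxk1 to 0.045 in KO against WT and to 0.0093 in KO against SmoM2, Foxn2 to 0.061 in Het against WT and to 0.040 in KO against SmoM2, and Foxp1 to -0.020 in SmoM2 against WT. With sex as a covariate 1 was called in KO against Het, as were 8.30% of tested genes. Foxp1 turned to -0.0076 in Het against WT, Foxn2 to 0.13 in KO against Het and 0.012 in KO against SmoM2, and Foxj3 to 0.13 in KO against Het. With totals implied by RPKM, Foxp1 in SmoM2 against WT became -0.022 and Foxj3 in KO against Het 0.055. Without a count filter 6 members were called in KO against Het, as were 12.3% of the genes with a count.

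Leaving out 1 library gave 2 to 6 called members in KO against WT, 1 to 5 in Het against WT, 0 to 4 in KO against Het and 5 to 7 over the 4 groups; a lone library was assumed to vary like the other groups. In KO against WT and over the 4 groups, a smaller share of all tested genes was called whichever library was left out. The lowest member counts in Het against WT and KO against Het also came with a smaller share of all tested genes. The highest count in Het against WT came with a smaller share too, and that in KO against Het with a larger one. The differences that turned ranged from -0.15 to 0.19 for Foxp1, -0.32 to 0.090 for Foxn2 and -0.026 to 0.17 for Foxj2 in Het against WT. In SmoM2 against WT they ranged from -0.31 to 0.83 for Foxo1, -0.088 to 0.13 for Foxp1, -0.39 to 0.053 for Foxn2, -0.15 to 0.44 for Foxn3 and -0.0056 to 0.14 for Foxk1. In KO against Het, Foxj3 ranged from -0.15 to 0.086.

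With the replicate number as a block (replicate block) 6 members were called in KO against WT, 4 in Het against WT, 0 in SmoM2 against WT, 3 in KO against Het, 6 in KO against SmoM2 and 8 over the 4 groups. Of all tested genes 24.8%, 27.4%, 0.401%, 11.3%, 34.3% and 43.6% were called in the same order. The replicate numbers share no stated litter or day, and the differences between replicates correlated across groups at -0.06 to 0.39, so they were not taken to pair libraries. The shallower KO-labelled libraries, with 36 and more counts a member, limit Foxn2 and Foxn3 most.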
